A study of Mus musculus with 12 samples.

Results

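The genes of the synaptic vesicle release machinery were followed in mouse colon from which enteric neurons had been ablated, with each neuronal gene set against its relatives in other cells. The members were all genes of the deposited expression table whose symbols belong to 12 families: synaptotagmins (Syt), syntaxins (Stx), syntaxin-binding proteins (Stxbp), vesicle-associated membrane proteins (Vamp), SNAP proteins (Snap), complexins (Cplx), synapsins (Syn), Sv2, Rab3, Unc13, Rims and synaptophysin (Syp). This name rule, which uses no measured value, found 74 of 27179 genes; it and the classes and pairs below were set with earlier results of these data known. By textbook knowledge, 38 were classed as neuronal (mainly used by neurons and endocrine cells), 28 as broad (used by most cell types) and 8 as mixed. Of the 74, 62 reached the minimum for testing, which was 0.5 TPM (a length-scaled share of the transcripts in a library) in at least 5 libraries; these were 29 neuronal, 27 broad and 6 mixed members.

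Vesicles fuse with the plasma membrane when a SNARE on the vesicle (a Vamp protein) zips together with SNAREs on the target membrane (a syntaxin and a SNAP protein). Syntaxin-binding proteins of the Sec1 family hold the syntaxin ready, Unc13 proteins prime the vesicle, synaptotagmins sense calcium and complexins clamp and then assist fusion. Rab3 and Rims proteins bring vesicles to the release site, while synapsins tether the reserve pool. Enteric neurons use the neuronal paralogues of these families to release acetylcholine, tachykinins and other transmitters onto muscle, glia and mucosa, and enteroendocrine cells use several of them to release hormones.

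RNA was sequenced from full-thickness colon cut out around the site of the injection, so each library holds muscle, nerve plexus and mucosa together. The control group (n = 5 libraries) had the genotype R26-iDTR, a Cre-dependent diphtheria toxin receptor at the Rosa26 locus, and was labelled Cre-negative. The ablated group held 7 libraries labelled Cre-positive and had, in addition, BAF53b-Cre, a Cre under the promoter of a neuron-specific chromatin remodelling subunit. Both groups had a laparotomy and a local microinjection of diphtheria toxin with India ink, and the controls were littermates. Ages and the time from toxin to dissection are not given in the sources used here, and nothing states that each library is a separate animal, so the spread between libraries may be partly technical. Recovered depth was 13.4 to 26.9 M reads per library.

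Ablated 1 and ablated 6 stood farthest from the median library on the first principal component of all tested genes, which held 40.1% of the variance. Ablated 1 also had 18.7% of its recovered reads in mitochondrial genes, against 3.56% to 10.4% in the other 11 libraries. All 12 neuron markers (Elavl4, Uchl1, Ret and others) had a log2 fold change below 0 in the ablated group. Of these, 9 were called lower (limma, adjusted p under 0.05), against 1.01% of all genes tested. Their summed levels were 105 to 230 TPM in control and 31.0 to 67.9 TPM in ablated libraries. None of the 12 was at 0 in all libraries. In bulk tissue, fewer cells of a type and less RNA per cell cannot be told apart.

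Promoter sequences of the synaptic genes are shown first because many neuronal genes carry the RE1 element, to which the repressor REST binds in non-neuronal cells. RefSeq promoters (build GRCm38.p6) matched 57 of the 74 members, among them 6 of the 9 that fell in the ablated colon. The RE1 was searched on both strands of the 250 bases before each start as 21 letters, TTCAGCACC, then any 2 bases, then GGACAG, any base and GCC, which fixes 18 bases. Syn1 matched 17 of the 18, a score reached by 5 of 32851 windows (0.0152%). Syt1 matched 13, reached by 1026 windows (3.12%). Each is printed 5′ to 3′ on the gene's strand, with the best 21-base match in capitals.
Syn1 (chrX:20920919-20921168, minus strand): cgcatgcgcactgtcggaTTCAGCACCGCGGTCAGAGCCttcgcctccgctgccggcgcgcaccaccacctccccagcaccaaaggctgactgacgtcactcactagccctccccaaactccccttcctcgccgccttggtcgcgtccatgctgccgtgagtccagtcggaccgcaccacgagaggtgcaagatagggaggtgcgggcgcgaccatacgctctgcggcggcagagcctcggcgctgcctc
Syt1 (chr10:109010976-109011225, minus strand): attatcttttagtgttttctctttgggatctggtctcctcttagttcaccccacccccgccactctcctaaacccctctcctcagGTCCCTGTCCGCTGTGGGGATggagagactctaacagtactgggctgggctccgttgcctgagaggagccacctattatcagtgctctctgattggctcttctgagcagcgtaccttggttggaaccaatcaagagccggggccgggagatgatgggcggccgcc

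The best matches of the other fallen members with a promoter are set below them for comparison. Beside them stand Syt2 and Syt6, neuronal members that did not pass and have more matching bases than Syt1, Rab3b, which rose, and Snap23, a broad paralogue. They are written along the motif, with the fixed bases that match in capitals.
Syn1 (chrX:20921130-20921150, 17 of 18): TTCAGCACCgcGGtCAGaGCC
Syt1 (chr10:109011120-109011140, 13 of 18): aTCccCACagcGGACAGgGaC
Snap91 (chr9:86880912-86880932, 11 of 18): TctActgCCgaGGACAGgcCa
Cplx1 (chr5:108550250-108550270, 10 of 18): caaAGaAaCccGGtCAGgagC
Syp (chrX:7638384-7638404, 10 of 18): gTCAtCcggtaGaACtGaGCg
Rab3c (chr13:110280308-110280328, 10 of 18): TcCAcCgCCcaGtgCAGctgg
Syt2 (chr1:134646488-134646508, 14 of 18): cTgcGCACCgaGGACAGtcCC
Syt6 (chr3:103575882-103575902, 14 of 18): TcCtGaACCctGGACAGccCC
Rab3b (chr4:108879009-108879029, 10 of 18): acCAGCcCagaacgCAGgGgC
Snap23 (chr2:120567466-120567486, 10 of 18): TaaAGCgtCccGtgCAagGCt
The match of Syn1 began 232 bases before the start, on the gene's strand, and that of Syt1 165 bases before it, on the opposite strand. At least 10 matching bases were found in 93.2% of all windows and at least 11 in 56.3%, so the scores of 10 and 11 are those of an ordinary window. At least 13 was reached by 4 of the 57 members, of which Syn1 and Syt1 fell and Syt2 and Syt6 did not pass. A member's score is the best over its windows, of which Syt1 and Syt2 had 2 and Syt6 had 3. The count of 4 in 57 members can therefore not be set against the share of all windows. The windows of the 26 neuronal members with a promoter had a median of 62.2% G and C and 12 CpG, those of the 25 broad members 60.4% and 17, and all windows 52.4% and 6. A match is a stretch of letters and not a measured binding site.

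In the ablated colon 9 members fell and 1 rose, and all 10 belong to the neuronal class (limma on log2(TPM + 0.5), adjusted by Benjamini and Hochberg over 16164 genes, adjusted p under 0.05). Syt1, Syt4, Syp, Snap25, Snap91, Rab3c, Syn1, Cplx1 and Syt5 fell, and Rab3b rose. Over all genes tested, 1.43% passed in either direction, 1.01% lower and 0.421% higher. None of the 27 broad and 6 mixed members passed in limma, where an unadjusted p under 0.05 was found for 3 broad members and 3 mixed ones, against 11.8% of all genes (1910 of 16164). Without ablated 1 and 6, 10 members fell and 1 rose, the addition being Syt11. All 9 that fell had groups that did not overlap, as had 1.55% of all genes in that direction, and 3 members did not overlap in the higher direction (Rab3b, Stx19 and Stxbp5), as had 1.33%. Rab3c and Snap91 reached the minimum only through the control libraries, so these 2 could pass only by being lower in ablated colon. Syt1 and Syt4 had 1 ablated library at 0.5 TPM or more, Cplx1 had 2 and Syn1 had 3. These genes, too, were tested only because their control libraries were high enough.

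**Figure D1:**
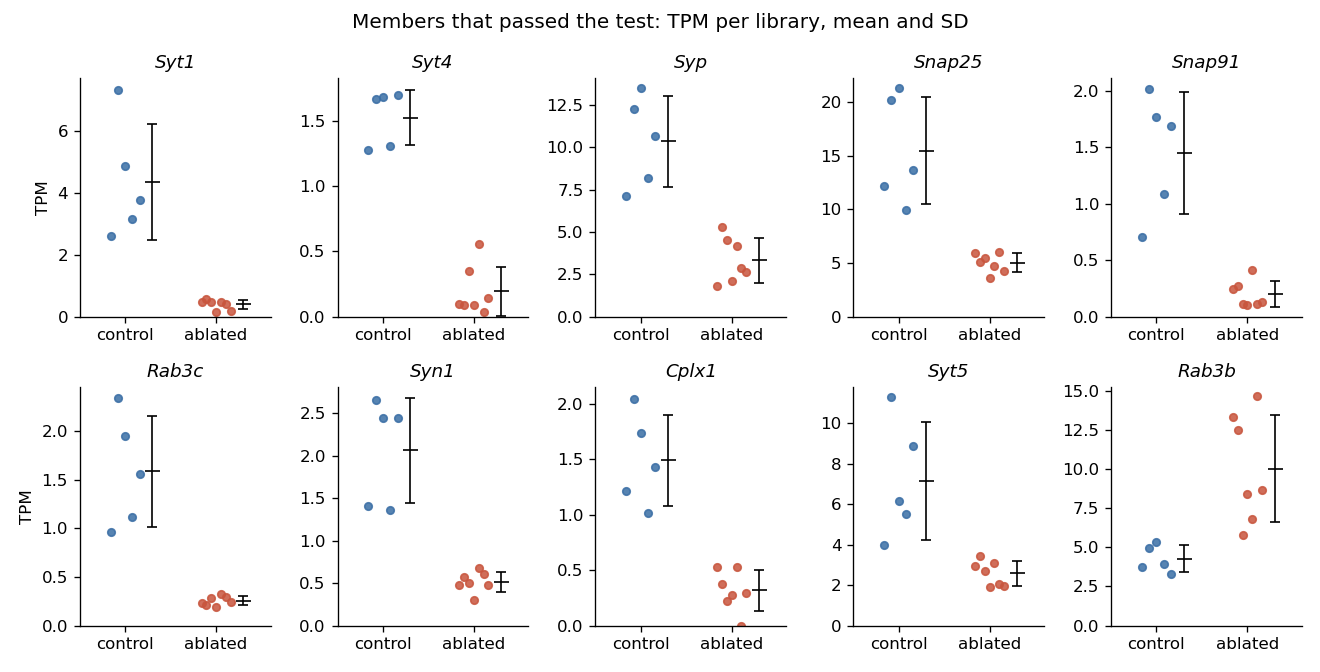
TPM, on linear axes from 0, of the 10 members that passed the test, with 1 point per library (5 control, 7 ablated) and the mean and SD of each group in black. The groups are apart in all 10 panels, lower in the ablated group for 9 genes and higher for Rab3b; Cplx1 was at 0 in 1 ablated library.

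Among tested neuronal members, 22 had a log2 fold change below 0 and 7 above, with a median of -0.33. The 27 broad members had 9 below and 18 above, with a median of 0.05, and all genes tested had a median of 0.03. Summed TPM of the broad members was 1141 ± 63.3 in control (SD, n = 5) and 1208 ± 115 in ablated colon (SD, n = 7), against 219 ± 16.7 and 187 ± 21.6 for the neuronal members. The 9 members that fell made up 31.4 to 61.8 TPM of the neuronal sum in control libraries and 8.71 to 15.8 TPM in ablated ones; Vamp2, Vamp1 and Rab3a were its most abundant members.

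**Figure D2:**
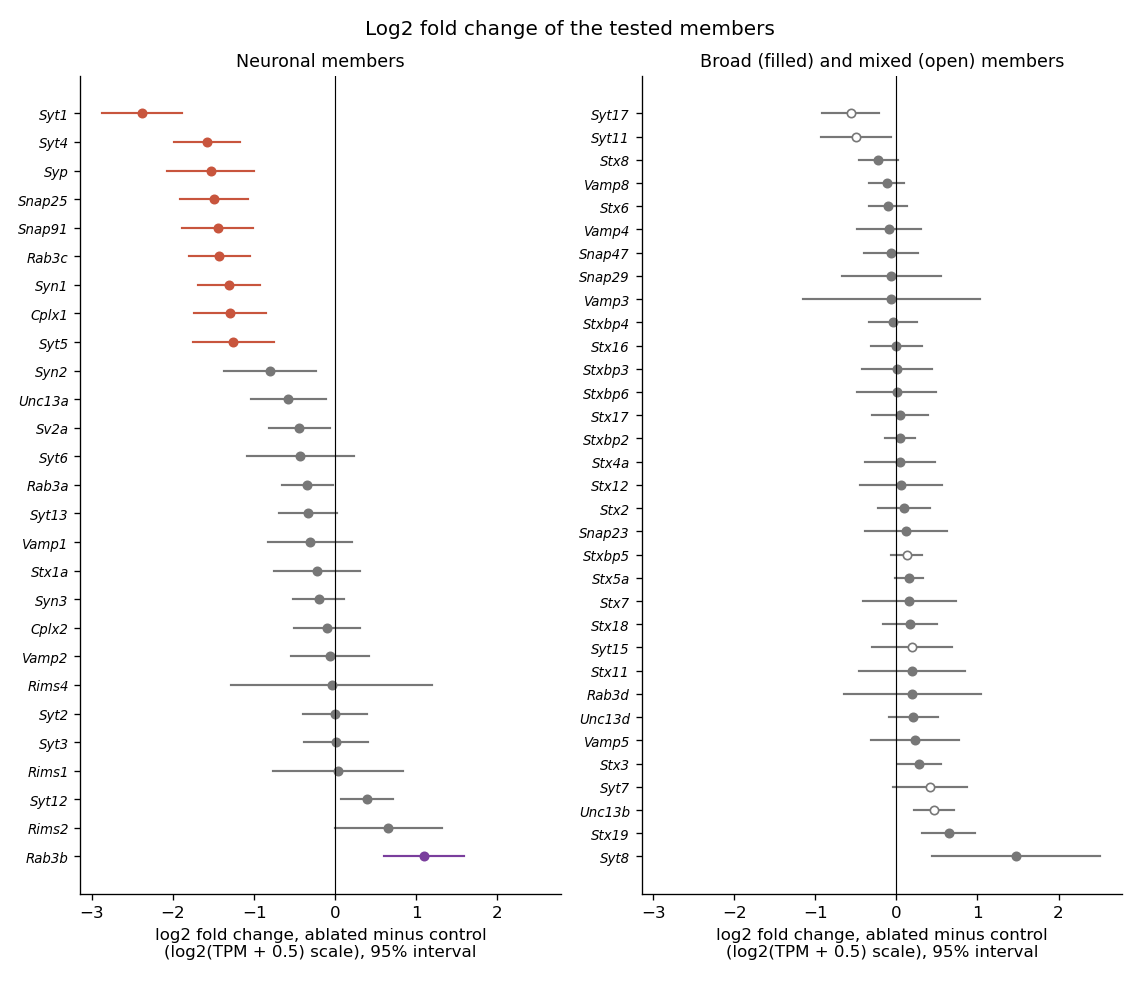
Log2 fold changes (ablated minus control, on the log2(TPM + 0.5) scale) with 95% intervals for 60 of the 62 tested members, neuronal on the left and broad (filled) or mixed (open points) on the right; members that passed the test are in colour and the others in grey. The intervals of the 9 fallen genes and Rab3b exclude 0, as do those of some grey members. Among these are Syn2, Unc13b and the broad members Syt8, Stx19 and Stx3. The intervals are not adjusted for the number of genes. The broad members are centred near a median of 0.05.

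Among the calcium sensors, Syt1, which drives fast synchronous release, had the largest fall. It lay at 2.60, 7.36, 4.87, 3.15 and 3.77 TPM in control libraries 1 to 5, and the lowest, median and highest ablated libraries had 0.163, 0.481 and 0.568 TPM. Every ablated library was below every control library, with control 2 the highest of all. Its mean was 4.35 ± 1.88 TPM in control and 0.394 ± 0.157 TPM in ablated colon, 11.05-fold lower (log2 fold change -2.38, 95% interval -2.87 to -1.89, adjusted p = 0.000161, limma). The gene lies at chr10:108497650-109010982 on mm10 (GENCODE annotation), and 1302 control and 157 ablated reads stand behind these values.

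Syt4, an atypical synaptotagmin of dense-core vesicles, had 1.28, 1.66, 1.68, 1.31 and 1.69 TPM in control and 0.0357, 0.0992 and 0.554 TPM in the lowest, median and highest ablated libraries. The groups were far apart, and the control libraries lay close together. The ratio of the means was 7.87 (log2 fold change -1.58, 95% interval -1.98 to -1.17, adjusted p = 0.000739, limma). Only 64 reads in all 7 ablated libraries cover it, so its ablated level is imprecise.

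Syt5, a synaptotagmin of synaptic and dense-core vesicles, stood at 3.97, 11.3, 6.14, 5.50 and 8.87 TPM in control and at 1.89, 2.69 and 3.41 TPM in the lowest, median and highest ablated libraries. The lowest control library, control 1, came near the highest ablated one, ablated 2, without overlap. The difference was 2.78-fold (log2 fold change -1.26, 95% interval -1.76 to -0.76, adjusted p = 0.0138, limma), at chr7:4539765-4547541.

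Other synaptotagmins did not pass. Syt7, a slow, high-affinity sensor used in lysosome and hormone secretion as well as in neurons, was the most abundant of the family in control at 14.8 ± 2.13 TPM, and was 20.8 ± 7.59 TPM in ablated colon (log2 fold change 0.41, 95% interval -0.05 to 0.88, adjusted p = 0.49, limma). The 13 tested synaptotagmins had a median log2 fold change of -0.33. Syt13, another neuronal member, had values of 5.27 and 4.17 TPM, and Syt11 and Syt17 of the mixed class had log2 fold changes of -0.50 and -0.56 (adjusted p = 0.334 and 0.137, limma); these 3 were chosen after their values were seen.

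Of the complexins, Cplx1, the complexin of fast central and motor synapses, had 1.22, 2.04, 1.74, 1.02 and 1.43 TPM in control and 0, 0.289 and 0.531 TPM in the lowest, median and highest ablated libraries. It was not detected in ablated 6, and no ablated library reached the control range. Its mean was 4.69-fold lower (log2 fold change -1.29, 95% interval -1.74 to -0.85, adjusted p = 0.00537, limma), on 199 control and 55 ablated reads, at chr5:108518554-108550024.

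Cplx2, its close paralogue, also used by mast cells and endocrine cells, was 4.68 ± 0.664 TPM in control and 4.45 ± 1.49 TPM in ablated colon (log2 fold change -0.10, 95% interval -0.51 to 0.30, adjusted p = 0.922, limma). Its ablated libraries ran from 3.02 to 7.56 TPM and overlapped the control range, with ablated 1 the highest. The log2 ratio of Cplx1 to Cplx2 was lower in every ablated than in every control library, by 1.19 on average; this ratio was chosen after the values were seen and is given with no test. Mast cell markers summed to 29.1 to 40.9 TPM in control and 28.5 to 43.0 TPM in ablated colon, and 0 of 4 tested members passed. Kit, named after its values were seen, made up most of this sum, at 20.6 ± 0.727 and 21.0 ± 2.89 TPM. Of the 4 tested, 3 had a log2 fold change below 0, as had 7167 of all 16164 genes tested, and their median was -0.33. The part of mast cells in the level of Cplx2 was not tested.

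On the vesicle membrane, Syp is an abundant integral protein of small synaptic vesicles. It had 7.09, 12.2, 13.5, 8.21 and 10.7 TPM in control and 1.82, 2.84 and 5.28 TPM in the lowest, median and highest ablated libraries. All ablated libraries lay below the control range. Its mean went from 10.3 ± 2.68 to 3.34 ± 1.33 TPM, 3.10-fold lower (log2 fold change -1.54, 95% interval -2.08 to -0.996, adjusted p = 0.00624, limma), at chrX:7638471-7653256.

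Syn1, which ties vesicles to actin in the reserve pool, had 1.41, 2.65, 2.44, 1.36 and 2.44 TPM in control and 0.298, 0.497 and 0.672 TPM in the lowest, median and highest ablated libraries. The gap between the groups was wider than the ablated range. The fall was 4.00-fold (log2 fold change -1.31, 95% interval -1.69 to -0.92, adjusted p = 0.00176, limma), at chrX:20860511-20921004, next to the promoter with the near-complete RE1 match printed above.

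Syn2, the second synapsin, was 5.61 ± 0.776 TPM in control and 3.24 ± 1.47 TPM in ablated colon and did not pass (log2 fold change -0.80, 95% interval -1.37 to -0.24, adjusted p = 0.201, limma). Ablated 1, 2 and 6 were its lowest libraries at 1.44, 2.07 and 2.07 TPM, while ablated 3 and 7 (4.75 and 5.09 TPM) lay within the control range of 4.46 to 6.52 TPM. The vesicle glycoprotein Sv2a had 1.93 ± 0.389 and 1.302 ± 0.361 TPM (log2 fold change -0.44, 95% interval -0.82 to -0.07, adjusted p = 0.312, limma).

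Snap91, which encodes the clathrin assembly protein AP180 that recovers vesicle membrane and is no SNARE in spite of its symbol, had 0.707, 2.02, 1.77, 1.08 and 1.69 TPM in control and 0.102, 0.132 and 0.410 TPM in the lowest, median and highest ablated libraries. No ablated library reached 0.5 TPM. The means differed 7.34-fold (log2 fold change -1.45, 95% interval -1.89 to -1.01, adjusted p = 0.00224, limma), on 385 control and 69 ablated reads, at chr9:86765923-86880654.

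The vesicle GTPases Rab3c and Rab3b, both in the neuronal class, went in opposite directions. Rab3c, an isoform of neurons, had 0.968, 2.34, 1.95, 1.11 and 1.56 TPM in control and 0.195, 0.240 and 0.323 TPM in the lowest, median and highest ablated libraries. The ablated libraries were close together and all under the control range. The difference was 6.26-fold (log2 fold change -1.43, 95% interval -1.81 to -1.05, adjusted p = 0.000793, limma), at chr13:110054187-110280996.

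Rab3b, which also acts in pituitary and epithelial secretion, had 3.77, 4.95, 5.35, 3.93 and 3.28 TPM in control and 5.77, 8.68 and 14.6 TPM in the lowest, median and highest ablated libraries. Ablated 3 was the lowest of its group and just above control 3, the highest control library, while ablated 1, 2 and 6 were the highest. The mean rose from 4.26 ± 0.861 to 10.02 ± 3.44 TPM, 2.35-fold (log2 fold change 1.10, 95% interval 0.60 to 1.59, adjusted p = 0.029, limma), at chr4:108879063-108943324. The call was lost in 12 of 25 alternative fits, among them those that left out any 1 control library or ablated 2, 6 or 7, at adjusted p = 0.0505 to 0.201 in limma (over all 25, 0.00389 to 0.201).

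Rab3a, the main Rab3 of brain synapses, was 18.1 ± 1.53 TPM in control and 14.4 ± 3.24 TPM in ablated colon (log2 fold change -0.34, 95% interval -0.66 to -0.03, adjusted p = 0.37, limma). Its interval does not reach the fall of Rab3c, and the log2 ratio of Rab3c to Rab3a was lower in every ablated library, by 1.09 on average, a description chosen after the values were seen. Rab3d, the Rab3 of exocrine and mucosal secretory granules, was the most abundant of the 4 in control at 37.0 ± 10.6 TPM, and ran from 21.2 to 88.3 TPM in ablated libraries (log2 fold change 0.20, 95% interval -0.64 to 1.04, adjusted p = 0.929, limma).

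The 13 enteroendocrine markers summed to 873 to 1158 TPM in control and 855 to 1269 TPM in ablated colon, with a median log2 fold change of 0.11. One passed in each direction, Tph1 higher (5.95 ± 1.11 to 11.7 ± 1.64 TPM) and Sst lower (44.4 ± 8.19 to 20.4 ± 6.66 TPM; adjusted p = 0.00407 and 0.0138, limma). Tph1 makes serotonin in enterochromaffin cells and Sst encodes somatostatin, which neurons also make. Their part in the levels of Rab3b, Rab3a, Cplx2 and Vamp2, all of which endocrine cells can express, was not tested.

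On the target membrane, Snap25, the SNARE of neurons and neuroendocrine cells that botulinum toxin A cleaves, had 12.2, 20.2, 21.3, 9.96 and 13.7 TPM in control and 3.62, 5.05 and 5.99 TPM in the lowest, median and highest ablated libraries. Control 2 and 3 were the highest, and all ablated libraries lay below the lowest control library, control 4. Its mean fell from 15.5 ± 5.02 to 5.01 ± 0.890 TPM, 3.09-fold (log2 fold change -1.49, 95% interval -1.92 to -1.07, adjusted p = 0.00126, limma), at chr2:136713453-136782428, with 2006 control and 891 ablated reads.

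Snap23, which takes the place of Snap25 in most other cells, was 35.5 ± 5.26 TPM in control and 40.4 ± 13.3 TPM in ablated colon (log2 fold change 0.12, 95% interval -0.39 to 0.62, adjusted p = 0.93, limma). Ablated 1 was its lowest library at 19.6 TPM and ablated 7 its highest at 54.1 TPM, so the ablated group enclosed the control range of 27.7 to 40.7 TPM.

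Stx1a, a neuronal syntaxin that pairs with Snap25, did not pass. It had 4.60 ± 0.515 TPM in control and 4.14 ± 1.81 TPM in ablated colon (log2 fold change -0.23, 95% interval -0.75 to 0.30, adjusted p = 0.826, limma), so the interval of its change lies above the estimate for Snap25. All 15 syntaxins were tested, none passed, and their median log2 fold change was 0.10. Stx4a, the most abundant syntaxin and the plasma membrane syntaxin of most cells, stood at 139 ± 7.85 and 151 ± 54.7 TPM, and Stx3, an apical syntaxin of epithelium, at 23.5 ± 1.77 and 29.1 ± 5.18 TPM (log2 fold changes 0.05 and 0.29, adjusted p = 0.967 and 0.385, limma).

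None of the 6 tested syntaxin-binding proteins passed. Stxbp2, the form of epithelial and immune cells and the highest of the family, had 98.2 ± 5.27 and 101 ± 8.79 TPM, and Stxbp3, the broad form, 45.7 ± 4.25 and 47.6 ± 13.8 TPM (log2 fold changes 0.04 and 0.00, adjusted p = 0.933 and 0.998, limma).

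On the vesicle side, Vamp2, the principal vesicle SNARE of synapses and the target of tetanus toxin, was 91.2, 53.2, 87.9, 78.6 and 80.8 TPM in control and 40.2, 83.6 and 100.1 TPM in the lowest, median and highest ablated libraries. The groups overlapped over most of their range. Its log2 fold change was -0.06 with an interval of -0.54 to 0.41 and adjusted p = 0.96 (limma), an interval that does not include the change of Snap25. Vamp1, its neuronal and muscle relative, had 20.6 ± 3.18 and 17.4 ± 5.91 TPM (log2 fold change -0.31, 95% interval -0.82 to 0.21, adjusted p = 0.709, limma).

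Vamp8, the vesicle SNARE of regulated secretion in exocrine and goblet cells and of late endosomes, was the most abundant of all members at 328 ± 19.1 TPM in control and 303 ± 34.6 TPM in ablated colon (log2 fold change -0.12, 95% interval -0.34 to 0.10, adjusted p = 0.743, limma). Vamp3, cellubrevin of recycling endosomes, had 32.6 ± 11.6 and 38.0 ± 26.2 TPM, with an ablated range of 9.33 to 72.5 TPM that enclosed the control range (log2 fold change -0.06, 95% interval -1.15 to 1.03, adjusted p = 0.986, limma). Vamp7 was listed at 0 in all 12 libraries, as was Cplx4. Unlike Cplx4, Vamp7 had no position found in the GENCODE annotation. Whether its RNA was absent or was not counted was not tested.

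Of the priming factors, Unc13a, the Munc13 of neurons, was 0.902, 1.79, 1.69, 1.17 and 1.43 TPM in control and 0.433, 0.773 and 1.34 TPM in the lowest, median and highest ablated libraries. Ablated 1 and 6 lay within the control range and the other 5 below it. The gene did not pass (log2 fold change -0.58, 95% interval -1.04 to -0.11, adjusted p = 0.282, limma). Unc13b, the most abundant Munc13 here and one used by epithelium as well as neurons, had 12.97 ± 1.11 and 18.1 ± 2.28 TPM (log2 fold change 0.46, 95% interval 0.22 to 0.71, adjusted p = 0.0705, limma), and Unc13d, of immune and secretory cells, 8.10 ± 0.961 and 9.51 ± 1.73 TPM (log2 fold change 0.21, adjusted p = 0.64). Rims4, a short Rims protein and the highest of its family in control, had 4.39 ± 2.26 and 5.35 ± 3.84 TPM (log2 fold change -0.04, 95% interval -1.29 to 1.20, adjusted p = 0.993, limma), with ablated 1, 2 and 6 at 0.620, 2.29 and 1.09 TPM and the other 4 ablated libraries between 7.30 and 9.47 TPM. None of the 3 tested Rims members passed.

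Ratios of a neuronal to a broad paralogue (for Syt1, the mixed Syt7) within each library ask whether the neuronal form lost share. In them the scaling between libraries cancels for genes well above the added 0.5 TPM. For low genes such as Syt1 and Unc13a it does not cancel fully. For 9 pairs, the difference of the log2(TPM + 0.5) values was compared between groups by an exact permutation test, two-sided, over all 792 ways to assign 5 and 7 libraries; no p under 0.00126 can be reached. The ratio fell in 3 of the 9 pairs at an adjusted p under 0.05 (Benjamini and Hochberg over the 9): Syt1 over Syt7, Unc13a over Unc13d and Snap25 over Snap23.

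Syt1 over Syt7 had the largest shift, from -1.73 ± 0.608 in control (SD, n = 5) to -4.53 ± 0.629 in ablated colon (SD, n = 7), by -2.80 (exact permutation p = 0.00126, adjusted p = 0.0114), with the groups apart. Snap25 over Snap23 went from -1.22 ± 0.666 to -2.83 ± 0.742, by -1.61 (exact permutation p = 0.00631, adjusted p = 0.0189). Ablated 1, at -1.64, lay within the control range of -1.98 to -0.37, and the other 6 ablated libraries lay below it. Unc13a over Unc13d shifted from -2.20 ± 0.429 to -2.98 ± 0.227, by -0.79 (exact permutation p = 0.00253, adjusted p = 0.0114), with overlap at the edges; here neither gene passed by itself.

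The other 6 pairs did not pass. Stx1a over Stx3 differed by -0.51 (ablated minus control; adjusted p = 0.207, exact permutation test). Rab3a over Rab3d differed by -0.54 (adjusted p = 0.519, exact permutation test). Vamp1 over Vamp8 differed by -0.19 (adjusted p = 0.629) and Vamp2 over Vamp3 by less than 0.01 (adjusted p = 0.991, exact permutation test). A p above the threshold does not show that these ratios were equal: the SD between ablated libraries reached 1.17 for Rab3a over Rab3d. Within the neuronal class, the log2 ratio of Snap25 to Stx1a was lower in every ablated library, by 1.27 on average, and that of Snap25 to Vamp2 by 1.43 with overlap; both were chosen after the values were seen and carry no test.

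**Figure D3:**
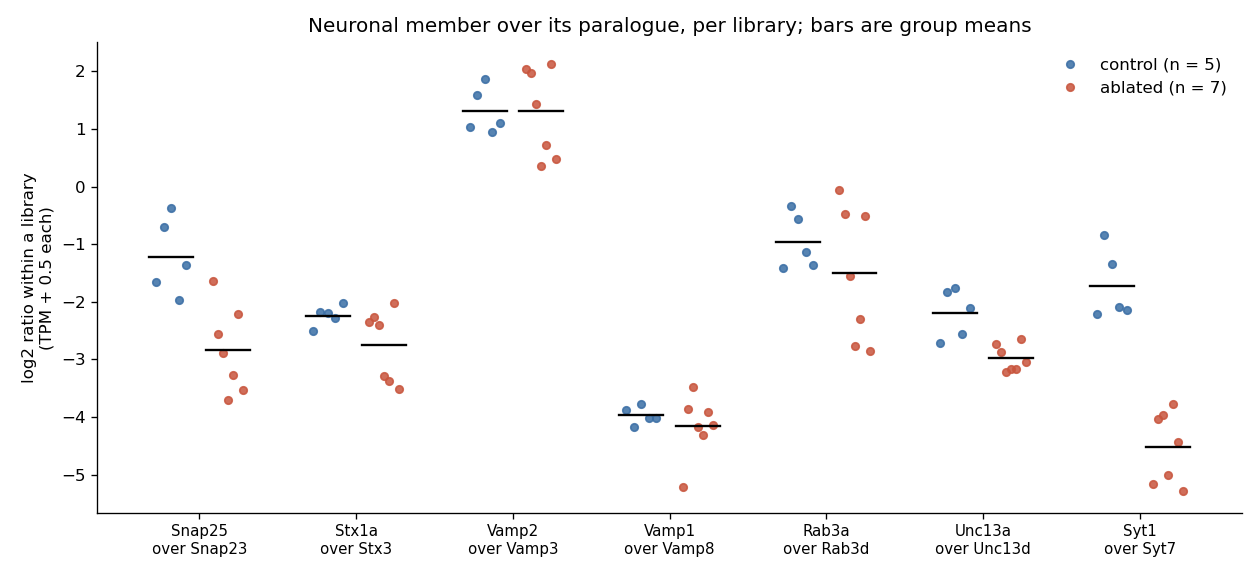
Log2 ratio of the neuronal to the broad or mixed member of 7 of the 9 pairs, with 1 point per library (5 control, 7 ablated) and a bar at each group's mean. Syt1 over Syt7 is separate between groups, Snap25 over Snap23 and Unc13a over Unc13d are lower with some overlap, and the other 4 overlap widely.

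The median of the 9 fallen genes, as a percent of each gene's control mean, was 68.3% to 137% in the control libraries and 14.5% to 32.6% in the ablated ones; that the ablated values are low follows from how the 9 were chosen. The 12 neuron markers had 67.1% to 142% and 18.3% to 38.8% in the same libraries. Control 1 and 4 were the lowest controls and control 2 the highest on both measures. Among ablated libraries the order differed with the measure: by the median of the 9, ablated 4 was lowest and ablated 5 highest, and on the neuron markers ablated 7 was lowest and ablated 2 highest. Whether a library holds more of the plexus or more of other tissue was not tested.

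Many broad members ordered the ablated libraries in another way. In 12 of the 27 tested, ablated 1, 2 and 6 all lay below the other 4 ablated libraries, and in 3 of them all lay above. This split was chosen after the values were seen and is not particular to the broad class. Its share over all genes was not counted, so 12 of 27 cannot be set against it. On the first principal component of all tested genes, ablated 1, 2 and 6 stood at 85.2, 22.0 and 44.5. Ablated 3, 4, 5 and 7 stood between -45.9 and -19.4 on it. Among neuronal members, Vamp2, Syn2 and Rims4 had ablated 1, 2 and 6 lowest, and Rab3a, Rab3b, Stx1a and Unc13a had them highest. Vamp3, Rab3d, Snap23, Snap29, Stx7 and Stx12 (the last 3 chosen, like Vamp5 and Syt8, after their values were seen) had ablated 1, 2 and 6 as their 3 lowest ablated libraries and ablated 4, 5 and 7 above every control library. For Vamp3, ablated 1, 2 and 6 had 9.33, 15.8 and 13.8 TPM and ablated 4, 5 and 7 had 72.5, 50.2 and 67.6 TPM. Stx4a was one of the 3 broad members with the reverse order, the others being Syt8 and Vamp5. It had 260.03, 164 and 157 TPM in ablated 1, 2 and 6. In ablated 4, 5 and 7 it had 103, 114 and 105 TPM, below every control library. Smooth muscle markers summed to 7755 to 11867 TPM in control and 7754 to 25223 TPM in ablated libraries. Epithelium markers summed to 9183 to 11507 and 9225 to 16207 TPM, and macrophage markers to 579 to 982 and 256 to 1932 TPM. Lyz2, named after its values were seen, made up most of the macrophage sum, at 395 to 722 and 140 to 1574 TPM. No gene of these 3 lists passed. The part of these 3 lists in the spread of the broad members was not tested.

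**Figure D4:**
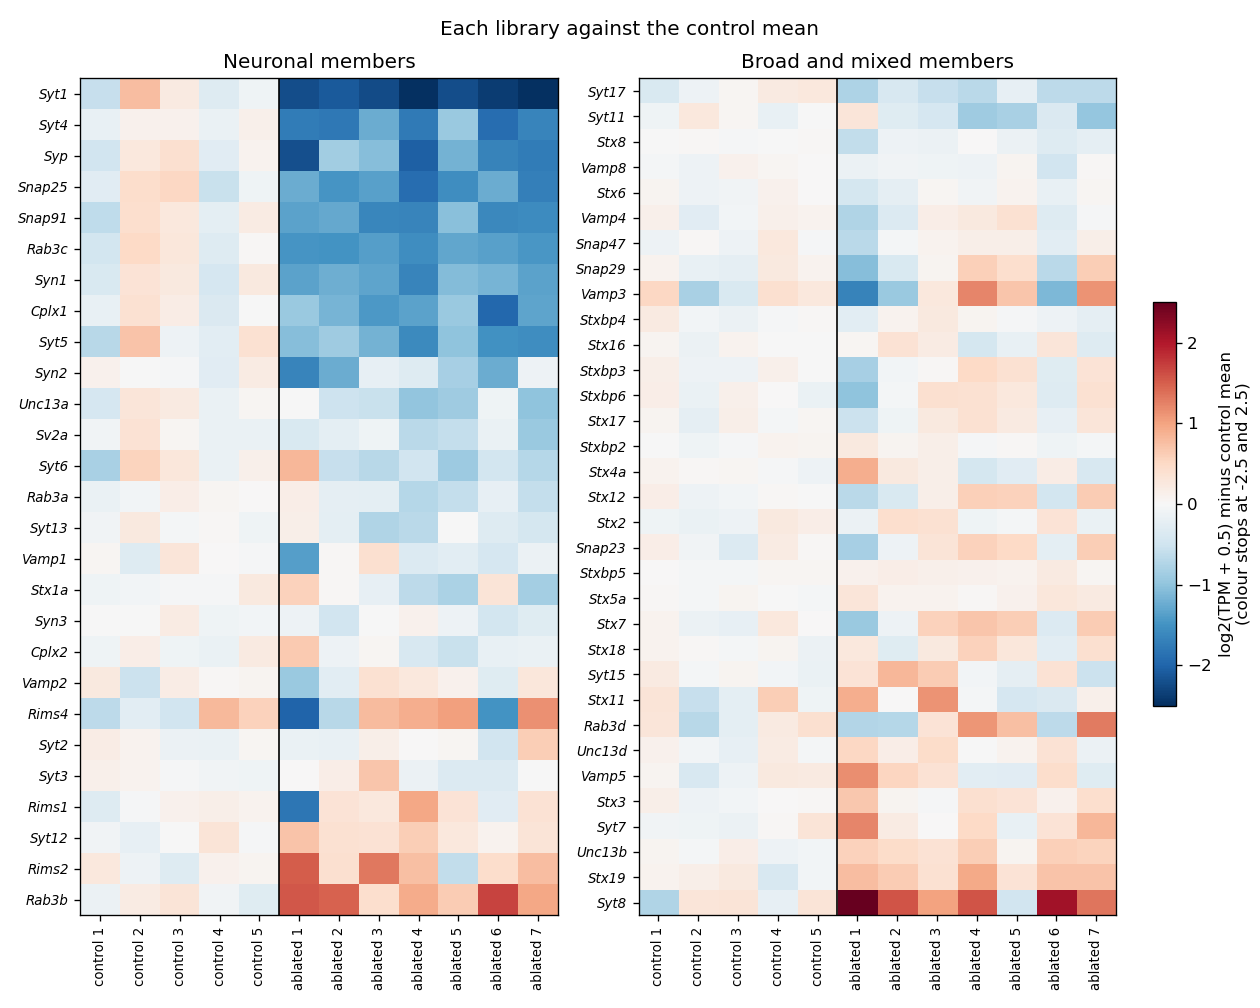
Of the tested members, 60 (rows, by class) in the 12 libraries (columns), coloured by log2(TPM + 0.5) minus the gene's control mean. The 9 fallen genes are low in all 7 ablated libraries, whereas many broad members are low in ablated 1, 2 and 6 and high in ablated 4, 5 and 7, and a few, such as Stx4a, show the reverse. Of the neuronal members, Rims4 is also low in ablated 1, 2 and 6 and high in ablated 4, 5 and 7.

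Other genes of the release machinery, 38 by list, included 33 that were tested, with a median log2 fold change of 0.06. Of these 33, 5 fell and 2 rose, where 1.01% of all genes tested were called lower and 0.421% higher. Sncg (gamma-synuclein, of peripheral neurons) fell from 29.8 ± 12.2 to 6.15 ± 2.62 TPM (log2 fold change -2.17, adjusted p = 0.00226, limma). Syngr3, a neuronal vesicle protein related to synaptophysin, went from 3.30 ± 1.16 to 0.876 ± 0.352 TPM (log2 fold change -1.46, adjusted p = 0.00503). The calcium sensor Doc2b and the vesicle protein Syngr1 also fell, with log2 fold changes of -1.02 and -0.74 (adjusted p = 0.0149 and 0.0431, limma). Doc2b reached the minimum only through the control libraries, so it could pass only by being lower. The pair that rose has roles in granule docking: Sytl2, a Rab27 effector, went from 12.8 ± 1.17 to 28.4 ± 6.86 TPM, and Rab27b from 11.5 ± 0.614 to 20.1 ± 4.86 TPM (adjusted p = 0.00322 and 0.0215, limma), each with the groups apart. Glia markers, which share the plexus with the neurons, summed to 47.4 to 57.4 TPM in control and 39.4 to 104 TPM in ablated colon. Of the 10, 0 passed in limma and 4 had an unadjusted p under 0.05, as had 11.8% of all genes tested. Yet 9 of the 10 had a log2 fold change below 0, as had 7167 of all 16164 genes tested. The median of the 10 was -0.42, and Foxd3 had groups that did not overlap, as had 1.55% of all genes in that direction. The sum is carried by Erbb3, a receptor that epithelium also expresses, at 29.8 ± 7.13 and 50.1 ± 31.6 TPM; named after their values were seen, neither gene passed.

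Members under the minimum were 12: Syt9, Syt10, Syt14, Syt16, Sv2b, Sv2c, Stxbp5l, Unc13c, Rims3, Cplx3, Cplx4 and Vamp7. In the limma fit with no minimum, 12 members were lower and 1 higher, where 1.2% of 22842 genes were called lower and 0.333% higher. The 3 added were Stxbp5l (a tomosyn of neurons that restrains release), Sv2b and Syt9, and they were chosen for mention after their values were seen. Stxbp5l had 0.221, 0.247, 0.215, 0.185 and 0.185 TPM in control and 0.0217, 0.0550 and 0.0748 TPM in the lowest, median and highest ablated libraries, with no overlap and on 152 and 54 reads. Sv2b and Syt9 had means of 0.461 and 0.443 TPM in control and 0.0992 and 0.0864 TPM in ablated colon; ablated 1 was within the control range for Sv2b and ablated 3 for Syt9.

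The authors' deposited table of the same comparison called 11 members lower and 1 higher at its false discovery rate of 0.05, where it called 0.916% of its genes lower and 0.21% higher. It holds all 10 members that passed here, and adds Stxbp5l and Sv2b, which were not tested above. In the authors' deposited table the log2 fold changes of Syt1, Syt4, Snap91 and Rab3c were -3.51, -3.01, -2.91 and -2.68, larger than here, where the added 0.5 TPM shrinks the fold changes of low genes. For Rab3b the authors' deposited table gives 1.22 with a false discovery rate of 0.0404. It uses the same libraries and is no independent evidence.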

How the data were processed

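RNA was measured in 12 libraries of full-thickness mouse colon, 5 control and 7 ablated, made from polyadenylated RNA with a stranded kit per the labels' protocols. Per the submitters' processing notes, bcl2fastq 2.17, HISAT and featureCounts were used with mm10; their roles and other settings are not given in the sources used here. The deposited values are TPM per gene. The authors' deposited comparison table holds a log2 fold change, a mean log2 CPM, a score (an F statistic), a p-value and a false discovery rate per gene, and is used only where it is named.

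Whole reads were recovered from the TPM values to state depth: a gene length from 20 to 30000 bases made the values whole within 0.05 read for 22840 of 22842 genes above 0, and the recovered mean log2 CPM had a Pearson r of 0.997 across 16073 genes with the authors' values. At this depth 1 read per kilobase is worth 0.0697 to 0.129 TPM.

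The test covered every gene that reached 0.5 TPM in 5 or more libraries. Values were taken as log2(TPM + 0.5) and a linear model was fitted per gene in limma 3.58.1 under R 4.3.3 (eBayes with a trend; ablated minus control, two-sided, no covariate), and p-values were adjusted over all 16164 genes by Benjamini and Hochberg. Fold changes are on that scale and understate those of low genes. Ratios were compared in Python 3.11.15. Named genes are all called members, all members of the 9 pairs and the member of each family with the highest control mean. The members, classes, pairs and lists were chosen with earlier results of these data known. Alternatives changed the constant, minimum, scaling, variance model, covariates and libraries. Some genes and pairs are counted but not reported here.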

Additional observations from a re-analysis of the deposited data

Results flagged for a closer look

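In 64 groups of values (the 32 members named by rule, in each of the 2 groups of libraries), 4 held a library that stood apart from the rest of its group by Dixon's test at 95%, where chance alone gives about 5% of groups. Cplx2 in ablated 1 was 7.56 TPM, with the other ablated libraries between 3.02 and 4.85 TPM. Stx4a in ablated 1 was 260.03 TPM, against 103 to 164 TPM in the others. Vamp8 in ablated 6 was 235 TPM, against 297 to 343 TPM. Stx1a in control 5 was 5.50 TPM, with the other controls between 4.20 and 4.49 TPM. None of these 4 genes passed the test between groups with all 12 libraries or without ablated 1 and 6.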

How the results depend on the processing

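The number of members called lower was 9 and ran from 7 (minimum of 1 TPM) and 6 (replicate block) to 12 (no minimum) and 13 (a weight per library), and from 8 to 9 when each library was left out in turn. The 1 member called higher was the least stable result: the count was 0 with median-of-ratios scaling, 0 with quantile scaling, 0 with the replicate block, 0 with voom on recovered reads, 2 with no trend, 4 with a weight per library and 5 with the mitochondrial share as covariate, and 0 to 4 with 1 library left out. Rab3b is the member lost. The median log2 fold change of the neuronal members was -0.33, and -0.52 with a weight per library and -0.47 without ablated 1 and 6, an alternative chosen after seeing the data. Of the genes that fell, Cplx1, Snap91 and Syt5 lost their calls in the replicate block (adjusted p = 0.101, 0.0622 and 0.0982, limma) and Syt5 without control 5 (0.0505). No call reversed its direction.

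Library numbers shared by the groups were used as a replicate block for libraries 1 to 5. Whole libraries correlated at 0.897 to 0.987 with each other. After each gene's group mean was subtracted, same-numbered libraries correlated at 0.00935, 0.359, -0.269, 0.203 and 0.162, so the numbers were not taken as pairs. With the block 0 paralogue ratios passed, since 5 pairs allow no p below 0.0625. Over all genes 231 were called (163 lower, 68 higher), 349 with no minimum, 89 with the block (74 and 15), 128 and 137 without control 2 and control 3, 1092 with a weight per library (438 and 654), 716 with the mitochondrial share (379 and 337), 264 with voom on recovered reads (216 and 48) and 346 without ablated 1 and 6 (191 and 155).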

Other observations

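Further members had higher means in ablated colon without passing the test; they were chosen after their values were seen. Stx19, a syntaxin-like SNARE of epithelium, had 3.32, 3.46, 3.72, 2.21 and 2.92 TPM in control and 4.06, 5.34 and 6.38 TPM in the lowest, median and highest ablated libraries. All 7 ablated libraries lay above the control range (log2 fold change 0.64, adjusted p = 0.0544, limma). Syt8, a synaptotagmin found in epithelial and endocrine cells, had 6.17 ± 1.91 TPM in control (SD, n = 5) and 22.4 ± 18.1 TPM in ablated colon (SD, n = 7), where ablated 1 had 60.3 TPM and ablated 5, at 4.09 TPM, lay within the control range (log2 fold change 1.48, adjusted p = 0.197, limma). Stxbp5, a tomosyn, had 8.04 ± 0.260 and 8.83 ± 0.377 TPM, a log2 fold change of 0.13 with adjusted p = 0.651 in limma, although the groups did not overlap. Rims2, an active zone scaffold also used in hormone secretion, had 0.809 and 1.74 TPM (log2 fold change 0.66, adjusted p = 0.43, limma).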
